A study of Mus musculus with 20 samples.

Results

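The genes described here make and display the peptides that cells show to T cells, together with the protease that cuts those peptides. The 70 members are all genes on the array whose platform symbol begins with H2- (the mouse MHC), with Psma to Psmg (the proteasome), or with Tap1, Tap2, Tapbp, B2m, Cd74, Ciita or Erap, apart from Psmb8 and Psmb9, which the rule set aside. They were 70 of 21556 features and came from 85 probes, with the probes of one symbol averaged. Of these, 34 are MHC and presentation genes and 34 are proteasome genes, and 24 of the latter are constitutive, that is, subunits of the 20S core and the 19S regulator that every cell uses. H2-Ke6, a steroid dehydrogenase gene that lies within the MHC, and Psmc3ip, a meiotic recombination gene, carry a matching symbol and belong to neither class. H2-D1, H2-Ab1 and Cd74 were not analysed here.

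Liver RNA of 20 C57BL/6J mice was measured on 20 arrays of 2 colours, 1 animal per array and 5 per group, each array setting a liver labelled with Cy5 against a shared reference, a pool of liver RNA labelled with Cy3. The mice came from the cross that yields every pairing of gonad and sex chromosomes, in which the Y chromosome has lost the testis-determining gene Sry and, in the gonadal males, an Sry transgene sits on an autosome, so that gonadal type and sex chromosomes vary separately. The gonadal males were XX Sry and XY-Sry, and the gonadal females were XX and XY-. All gonadal males carried the transgene and no gonadal female did. Effects of the transgene itself and of the gonads before their removal therefore cannot be told apart in a gonadal difference. All 4 groups ate chow (4% fat). Gonadectomy was done at 8 weeks of age in all of them and tissue was taken at 12 weeks, the food having been withdrawn for 12 h, so none had gonadal hormones from its own gonads from then on, and no group with intact gonads was analysed here. The labels describe the pool in 2 ways, as 17 chow-fed mice and as equal shares of RNA from each sample.

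Class I molecules, a heavy chain bound to B2m, sit on nearly all cells and display peptides made inside the cell. The proteasome cuts proteins to those peptides, the Tap1 and Tap2 transporter carries them into the endoplasmic reticulum, and Tapbp and Erap1 load and trim them there. Class II molecules, pairs of an alpha and a beta chain, are made by dendritic cells, B cells and macrophages such as the Kupffer cells of the liver, under control of the transactivator Ciita. Interferon-gamma raises most of these genes and also swaps 3 core subunits for inducible ones, among them Psmb10, and adds the 11S activator of Psme1 and Psme2, while most other proteasome subunits are made at a steady rate in all cells.

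Promoter windows of the members were searched for 3 short motifs. RefSeq windows (GRCm38.p6, 250 bases before to 50 after a gene's start) matched 54 of the 70 members, some with more than 1 window. The Y box, bound by NF-Y, was searched as ATTGG, the core of the X2 box, bound by CREB-type factors, as TGACG, and the core of an interferon response element as GAAA, any 2 bases and GAAA again, each on both strands. ATTGG was in 25 of 28 windows of the MHC and presentation members (89.3%), in 9 of 19 of the constitutive proteasome (47.4%) and in 37.4% of all 32851 windows. TGACG was in 11 of 28 (39.3%), 9 of 19 (47.4%) and 20.8%, and the interferon element core was in 3 of 28 (10.7%), 2 of 19 (10.5%) and 3.44%. A match is a description of the letters and no site. Here 4 called members of 3 roles are shown, 5′ to 3′ on the strand of the gene with the matched letters in capitals: the class II chains H2-Aa (chr17:34287774-34288073, minus strand, 1 Y box and a TGACG on each strand that overlap in 1 palindrome) and H2-Eb1 (chr17:34305617-34305916, plus strand, 2 Y boxes), the class I light chain B2m (chr2:122147437-122147736, plus strand, 1 Y box, 2 TGACG and 1 interferon element) and the proteasome activator Psme1 (chr14:55578244-55578543, plus strand, 1 interferon element and no ATTGG). The window of Psmb10 held none of the 3 motifs, which says only that these letters are not in it.
H2-Aa: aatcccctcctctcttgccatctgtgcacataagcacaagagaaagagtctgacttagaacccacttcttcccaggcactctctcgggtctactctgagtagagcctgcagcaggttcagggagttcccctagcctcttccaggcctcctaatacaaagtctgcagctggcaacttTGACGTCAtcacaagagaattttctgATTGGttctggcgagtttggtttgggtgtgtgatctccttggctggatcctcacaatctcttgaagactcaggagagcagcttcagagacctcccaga
H2-Eb1: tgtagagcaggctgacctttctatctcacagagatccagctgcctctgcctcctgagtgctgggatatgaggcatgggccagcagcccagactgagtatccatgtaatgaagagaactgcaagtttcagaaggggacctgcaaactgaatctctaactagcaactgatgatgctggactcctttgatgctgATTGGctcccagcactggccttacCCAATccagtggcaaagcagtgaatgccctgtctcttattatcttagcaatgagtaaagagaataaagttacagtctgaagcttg
B2m: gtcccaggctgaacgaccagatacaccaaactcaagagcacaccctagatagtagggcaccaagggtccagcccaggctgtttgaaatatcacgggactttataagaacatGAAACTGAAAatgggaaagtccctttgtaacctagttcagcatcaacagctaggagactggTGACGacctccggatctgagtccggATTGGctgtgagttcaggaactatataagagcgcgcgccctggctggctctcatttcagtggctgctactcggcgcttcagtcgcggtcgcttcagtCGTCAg
Psme1: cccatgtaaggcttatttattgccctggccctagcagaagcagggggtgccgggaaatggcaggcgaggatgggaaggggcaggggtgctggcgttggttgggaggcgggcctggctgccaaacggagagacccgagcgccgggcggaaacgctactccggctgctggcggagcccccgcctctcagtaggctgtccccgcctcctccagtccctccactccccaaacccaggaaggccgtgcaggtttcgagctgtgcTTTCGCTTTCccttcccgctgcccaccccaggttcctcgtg

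Every value below is a log2 ratio of a liver to the pool, or a difference of such ratios, so it tells nothing of how one gene compares with another in level. On the Y chromosome, the array labelled XY- animal 30 read as the XX arrays did, at -3.90 for Eif2s3y against 0.57 to 1.34 in the other XY arrays and -5.28 to -2.46 in the XX arrays. It goes against its label, and values without it are given for the called members and the counts. The arrays XX 2, XX 6, XY- 3 and XY- 12, all gonadal females, were wider than the rest (SD over features above 0.3 on the log2 scale), and the correlation between arrays over all features ran from -0.54 to 0.68, with 9 of 190 pairs under -0.3. The dyes are stated the same way for every array, so the direction was kept. A ratio to a pool does not show whether a marker is present, so the tissue label could be checked only for a shift. The mean of 11 measured hepatocyte markers lay between -0.18 and 0.20 in gonadal males and between -0.20 and 0.10 in gonadal females.

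Against gonadal females, gonadal males had lower RNA of the class II chains H2-Aa and H2-Eb1, of 3 class I genes and B2m, and of the interferon-induced proteasome members Psmb10 and Psme1, while no constitutive proteasome gene passed. In the limma fit over all features, 8 of 70 members (11.4%) had a Benjamini-Hochberg adjusted p under 0.05 for gonadal males minus gonadal females, averaged over XX and XY, against 3.75% of all 21556 features, and all 8 were lower in males, against 2.28% of all features. They were H2-Eb1, H2-Aa, Psmb10, B2m, Psme1, H2-T23, H2-Q7 and H2-Bl. Among MHC and presentation members 6 of 34 (17.6%) passed, and 25 of 34 were below 0 with a median of -0.08. Among the constitutive proteasome 0 of 24 passed, 20 of 24 were above 0 and the median was 0.11, where the median of all features was 0.01. Without the 4 wide arrays 12 of 24 were above 0 and the median was 0.01. The count of 0 stood beside 6 of 24 at an unadjusted p under 0.05, where 17.8% of all features had one. The count called was also 0 under quantile and scale normalization, array weights and robust moderation of the spread. It was 1, Psmd14 higher in males, without XY- 30 or without XY-Sry 14.

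**Figure D1:**
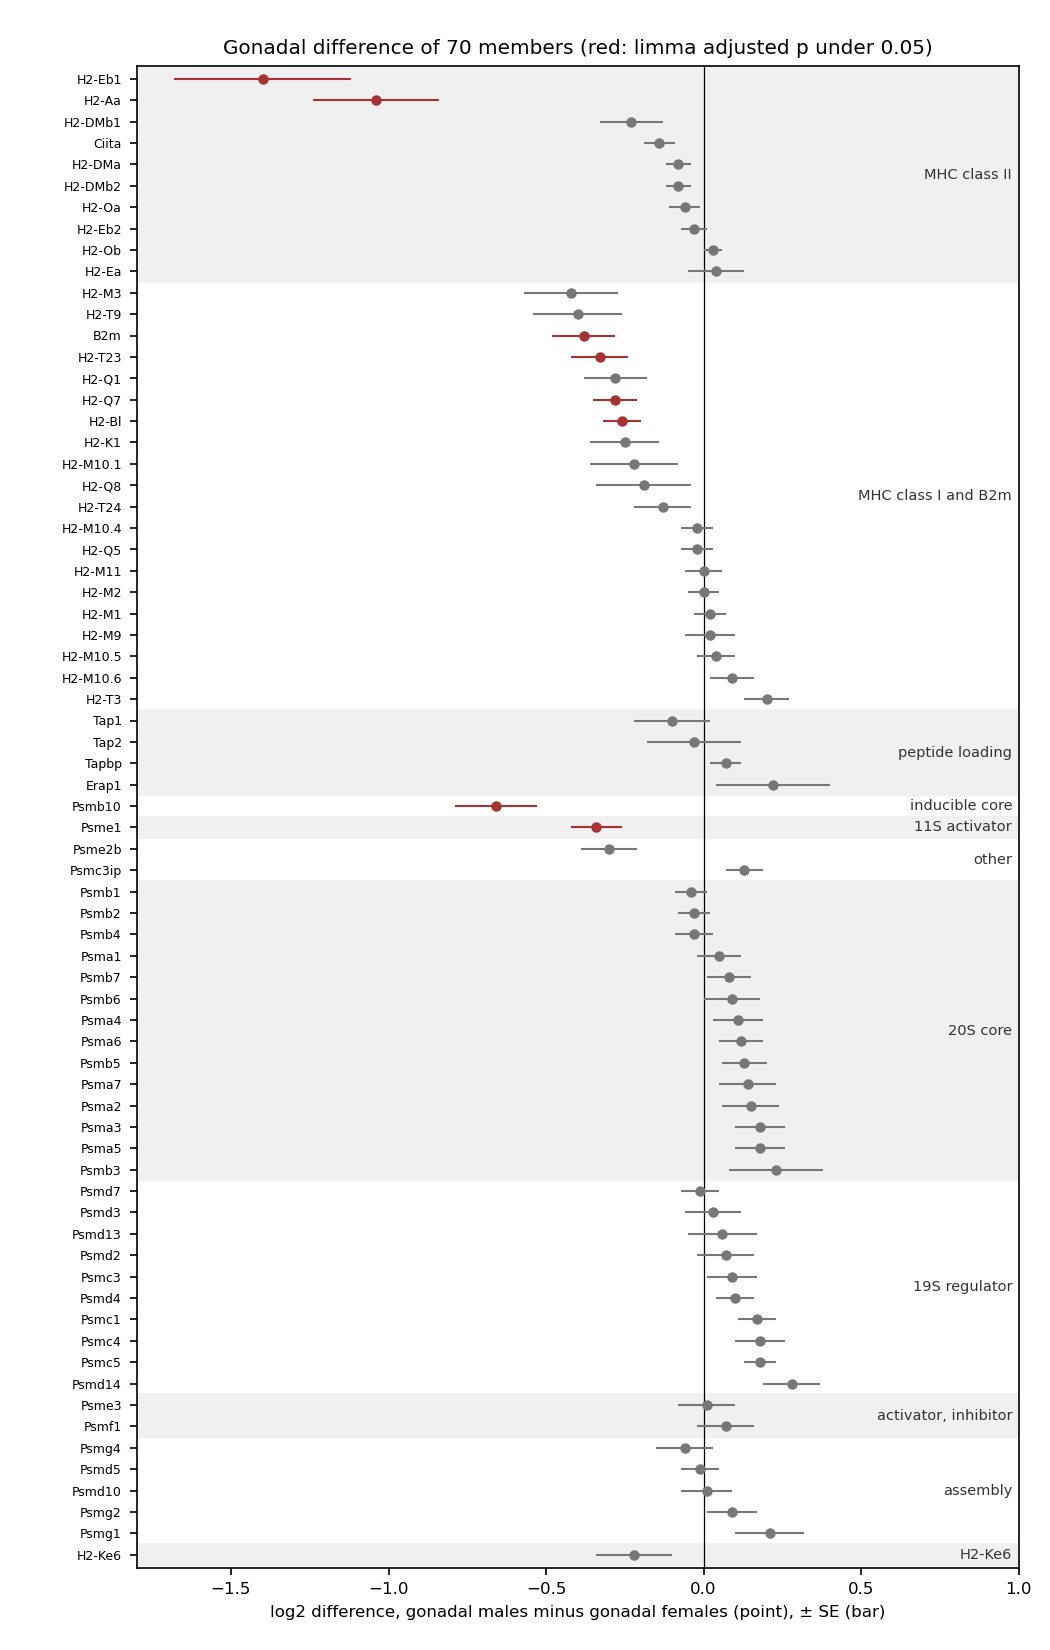
Log2 difference of gonadal males minus gonadal females for the 70 members (point) with its SE (bar), grouped by role, with adjusted p under 0.05 in red. The 8 red members lie left of 0, from H2-Eb1 at -1.40 to H2-Bl at -0.26, and the rows of the 20S core and the 19S regulator lie mostly right of 0, up to Psmd14 at 0.28.

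The largest differences were in chains of the classical class II molecules, which as pairs of an alpha and a beta chain present peptides to CD4 T cells. H2-Aa, the I-A alpha chain, read -0.81, -0.91, -0.80, -0.82 and -0.71 in XX Sry, and -0.92, -0.60, -0.83, -1.10 and -0.53 in XY-Sry. It read -0.02, 0.08, 0.24, 0.40 and 0.18 in XX, and 1.79, 0.49, -0.26, -0.21 and -0.33 in XY-. All 10 gonadal males lay below all 10 gonadal females, which held in that direction for 0.288% of features, and XY- animal 12 stood highest. The difference was -1.04 ± 0.20 (SE), 2.05-fold lower in males, with an adjusted p of 0.00684. H2-Eb1, the I-E beta chain, read -1.16, -1.09, -1.12, -1.31 and -1.23 in XX Sry, and -1.25, -0.91, -1.26, -1.45 and -0.50 in XY-Sry. It read 0.09, 0.35, 0.36, 0.59 and 0.05 in XX, and 2.47, 0.07, -0.38, -0.60 and -0.31 in XY-. Males and females did not overlap within XX, and in XY they overlapped because XY- animal 3 lay just under XY-Sry animal 14. The share of all features that did not overlap within XX was not counted. Psmc5 of the proteasome and the class I gene H2-M10.6, neither of them called, also did not overlap within XX, with males above. The difference was -1.40 ± 0.28, 2.64-fold lower, with an adjusted p of 0.00915. Without the 4 wide arrays H2-Aa was -0.89 (adjusted p = 0.000938) and H2-Eb1 -1.20 (0.000145), and without XY- 30 they were -1.01 (0.0102) and -1.42 (0.011).

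The other 8 class II members did not pass. Ciita, which switches the class II chains on, was at -0.14 ± 0.05 with an adjusted p of 0.0938, from -0.16 to 0.04 in gonadal males and from -0.05 to 0.27 in gonadal females. H2-DMb1, a beta chain of the H2-DM complex that exchanges peptides on class II, was at -0.23 (adjusted p = 0.235). Its alpha chain partner H2-DMa and the other beta chain H2-DMb2 were each at -0.08. H2-Ea, the I-E alpha chain, which this strain does not transcribe, was at 0.04 ± 0.09. The I-E beta chain H2-Eb1 therefore has no I-E alpha partner in these mice, and its RNA difference need not mean a difference in presenting molecules. The decrease of H2-Aa and H2-Eb1 was thus several times the size of any other class II difference on this array.

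Class I genes differed less, and the members that passed were the light chain and nonclassical or Q-region genes. B2m ran from -0.48 to 0.22 (median -0.20) in gonadal males and from -0.19 to 0.50 (median 0.28) in gonadal females, and 6 of 10 females exceeded every male. Its difference was -0.38 ± 0.10, 1.30-fold lower, with an adjusted p of 0.033, which was 0.0428 without XY- 30 and 0.167, at -0.30, without the wide arrays. H2-T23, which encodes Qa-1, the ligand of NK cell receptors of the NKG2 family, was at -0.33 ± 0.09 (adjusted p = 0.0411), with 7 of 10 females above every male, and without XY- 30 its adjusted p was 0.0529. H2-Q7, a Qa-2 gene, was at -0.28 ± 0.07 (adjusted p = 0.0271, and 0.037 without XY- 30), with 9 of 10 females above every male and XY- animal 3 the one below. H2-Bl, a transcribed pseudogene, was at -0.26 ± 0.06 (adjusted p = 0.0311), with 0.0349 without XY- 30 and 0.096 without the wide arrays, and 4 of 10 females lay above every male. Class I genes are close copies of each other, and whether the probes tell them apart was not tested.

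The remaining 16 class I members did not pass, among them H2-K1, a classical heavy chain, at -0.25 ± 0.11 (adjusted p = 0.22). H2-K1 ran from -0.44 to 0.12 in gonadal males, and in gonadal females from -0.64 in XY- animal 3 to 0.48 in XX animal 6. Leaving out the 4 wide arrays brought H2-K1 (-0.32, adjusted p = 0.0422), H2-Q1 (-0.30, 0.0116) and H2-Q8 (-0.37, 0.0127) below the threshold. In that fit 9 members were called (3.85% of all features), all lower in males, 6 of them among the 8. Across the 11 class I members without an H2-M name, 10 were below 0 and the median was -0.26. The 9 with an H2-M name, most of which are expressed in few tissues, had a median of 0, and H2-M3, which presents formylated bacterial peptides, was the lowest at -0.42 ± 0.15 (adjusted p = 0.139). H2-T3, the thymus leukemia antigen, stood apart at 0.20 (adjusted p = 0.14).

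Of the 4 peptide transport and loading genes 0 passed, with 0 at an unadjusted p under 0.05. Tap1 was at -0.10 ± 0.12, Tap2 at -0.03, Tapbp, which bridges the transporter to class I, at 0.07, and Erap1, the peptide-trimming aminopeptidase, at 0.22 ± 0.18. Tap1 read from -0.29 to 0.22 in gonadal males, and in gonadal females from -0.56 in XY- animal 3 to 0.87 in XX animal 6. The females thus reached beyond the males on both sides.

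The 2 called proteasome members are those that interferon induces. Psmb10, the inducible subunit that replaces Psmb7 in the immunoproteasome, read -0.41, -0.32, -0.24, -0.51 and -0.38 in XX Sry, and -0.35, -0.12, -0.01, -0.68 and -0.10 in XY-Sry. It read -0.05, 0.66, 0.42, 0.29 and 0.81 in XX, and 0.90, -0.18, -0.01, 0.29 and 0.37 in XY-. Within XX all males were below all females, a split whose share over all features was not counted, and in XY the groups overlapped. The difference was -0.66 ± 0.13, 1.58-fold lower, with an adjusted p of 0.00733, with -0.45 (0.0306) without the wide arrays and -0.72 (0.00358) without XY- 30. Psmb7 itself was at 0.08.

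Psme1, the alpha subunit of the 11S activator, read -0.16, -0.14, -0.43, -0.29 and -0.01 in XX Sry, and -0.15, -0.18, 0.08, -0.43 and 0.01 in XY-Sry. It read 0.24, 0.15, 0.25, 0.32 and 0.21 in XX, and 0.57, -0.06, -0.01, -0.06 and 0.13 in XY-. The 5 XX livers formed the tightest group and lay above all XX Sry livers, and the XY groups overlapped. Here too the share of all features split in this way within XX was not counted. The difference was -0.34 ± 0.08, 1.27-fold lower, with an adjusted p of 0.0236, with -0.31 (0.0331) without the wide arrays and -0.36 (0.0171) without XY- 30. Psme2b, a copy of the partner subunit gene Psme2, was at -0.30 ± 0.09 (adjusted p = 0.0715), and whether its probes also read Psme2 was not tested. Psme3, a nuclear activator that interferon does not induce, was at 0.01, and the inhibitor Psmf1 at 0.07.

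**Figure D2:**
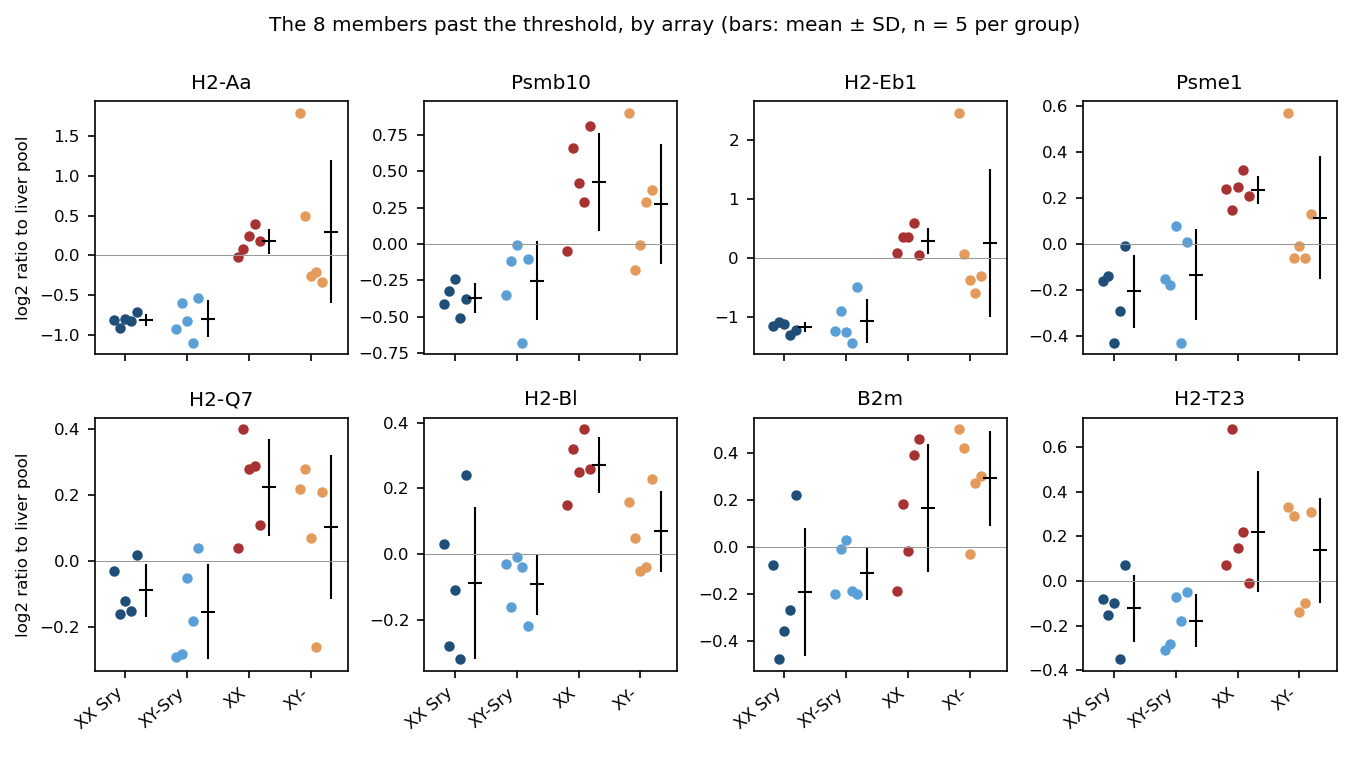
Log2 ratio to the liver pool of the 8 members past the threshold, 1 point per array in 4 groups, with the mean and SD of each group (n = 5) beside the points. For H2-Aa all gonadal males lie at or below -0.53 and all gonadal females at or above -0.33, and in XY- animal 12 stands far above the other 4 for H2-Aa and H2-Eb1.

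The calls differed in how firmly they held. H2-Aa, H2-Eb1 and Psmb10 passed in all 20 fits that left out 1 animal. Psme1 failed in 1, without XX Sry 31 (adjusted p = 0.0524), H2-Q7 in 4, B2m in 8, H2-Bl in 9 and H2-T23 in 12. The count of MHC and presentation members therefore fell from 6 to 2 without XX Sry 18, XX Sry 31 or XY-Sry 19, and to 3 without XX Sry 9, XY-Sry 27 or XX 35. Over all features 3.75% were called with all arrays. That share was 2.22%, 1.86% and 1.81% in the fits that gave 2, and 2.9%, 2.46% and 3.06% in those that gave 3. The count of proteasome members fell from 2 to 1 without XX Sry 31. Without XY- 30, 8 members were called (5.24% of all features), 7 of them among the 8. Psmd14 (0.33, higher in males, adjusted p = 0.0251) then took the place of H2-T23. All 8 kept their direction in each of these fits.

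No constitutive proteasome subunit passed with all 20 arrays. The 14 core subunits had a median difference of 0.12, with 11 above 0, from Psmb1 at -0.04 to Psmb3 at 0.23. The 10 subunits of the 19S regulator had a median of 0.10, with 9 above 0, from Psmd7 at -0.01 to Psmd14 at 0.28. Psmd14, the deubiquitinase of the regulator lid, came nearest to the threshold at 0.28 ± 0.09 (adjusted p = 0.0741), followed by the base ATPase Psmc5 at 0.18 ± 0.05 (0.0763). Psmd14 passed without XY- 30 (0.33, 0.0251) and without XY-Sry 14 (0.33, 0.0314), and was at 0.19 (0.31) without the wide arrays. Psmd14 ran from -0.32 in XY-Sry animal 14 to 0.35 in gonadal males and from -0.52 in XY- animal 12 to 0.17 in gonadal females, and the groups overlapped. The 5 assembly chaperones, which help to build the core or the regulator base, had a median of 0.01, and 0 of 5 passed, with 0 at an unadjusted p under 0.05.

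Set side by side by array, the mean of the 34 MHC and presentation members lay between -0.15 and -0.02 in gonadal males (mean -0.10, SD 0.04, n = 10) and between -0.12 and 0.25 in gonadal females (mean 0.07, SD 0.12, n = 10). The mean of the 24 constitutive proteasome members lay between -0.16 and 0.19 in males (mean 0.05, SD 0.10) and between -0.21 and 0.12 in females (mean -0.06, SD 0.11). The proteasome mean overlapped widely between the gonadal types. The MHC mean overlapped in 3 female arrays, XX 2, XY- 24 and XY- 3. The median MHC difference lay 0.19 below that of the constitutive proteasome, a gap of -0.19 that stayed between -0.22 and -0.17 when any 1 animal was left out. Without the 4 wide arrays, all gonadal females, it was -0.09, since the proteasome median went to 0.01 while the MHC median stayed at -0.08. The small positive lean of the proteasome over both complements was thus not seen without those arrays. In that fit the proteasome median was 0.09 within XX, with 15 of 24 above 0, and -0.02 within XY, with 9 of 24. The reason for this change was not tested. The 5 lowest proteasome means were those of the wide arrays and of XY-Sry 14, at -0.21 in XX 6, -0.19 in XX 2, -0.17 in XY- 3, -0.16 in XY-Sry 14 and -0.14 in XY- 12.

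**Figure D3:**
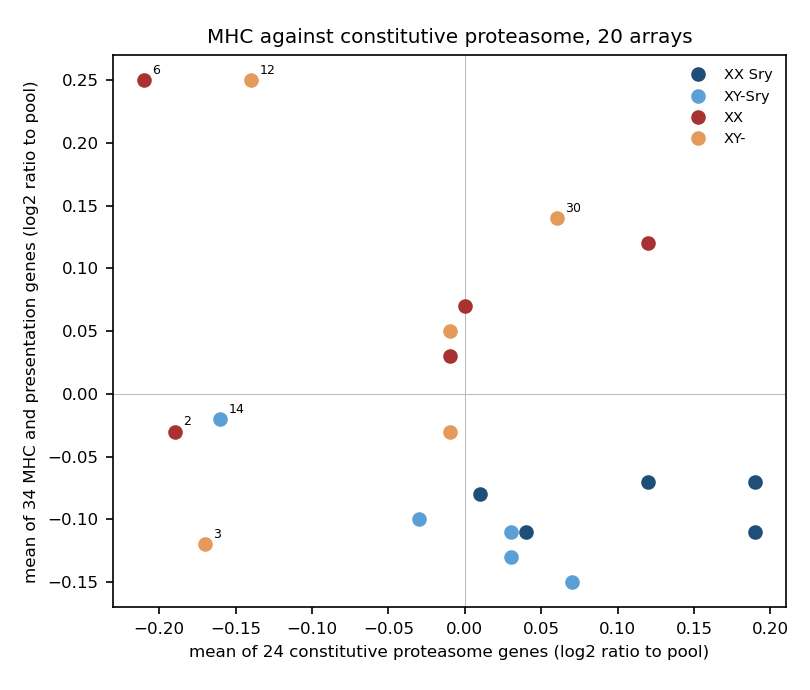
Mean log2 ratio to the pool of the 34 MHC and presentation members (vertical) against that of the 24 constitutive proteasome members (horizontal), 1 point per array, with the 4 wide arrays, XY- 30 and XY-Sry 14 labelled by animal number. Gonadal males lie below 0 on the vertical axis, the wide arrays lie at the left, and XX 6 and XY- 12 lie highest.

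No member passed for the sex chromosomes. For XX minus XY, 0 of 70 members passed (0.0278% of all features), and 0 passed with robust moderation. An unadjusted p under 0.05 was found for 1 member, the assembly chaperone Psmd5 at 0.16, and for 5.06% of all features. The smallest adjusted p was 0.914. Without XY- 30, whose label this comparison rests on, 0 of 70 again passed (smallest adjusted p 0.749), but 6 had an unadjusted p under 0.05, as did 6.62% of all features. These were Psmb6 (0.24), Psmb3 (0.30), Psmd14 (0.20), Psmd5 (0.14), H2-Q8 (0.34) and Tap1 (0.27), each higher in XX. H2-Aa was at -0.07, H2-Eb1 at -0.04, B2m at -0.10 and Psmb10 at 0.01 with all arrays, and at -0.04, -0.06, -0.09 and -0.04 without XY- 30. The MHC median was -0.01 and the constitutive proteasome median 0.06, and 0 and 0.07 without XY- 30. The test of whether the gonadal difference itself differed between XX and XY called 0 of 70 members and 0 of all features. That test gave an unadjusted p under 0.05 for 0 members and for 2.58% of all features. Its median over the constitutive proteasome was 0.14, with 22 of 24 members above 0, against 0.01 over all features. Without XY- 30 that median was 0.10, with 20 of 24 above 0, and again 0 members passed and 0 had an unadjusted p under 0.05. Without the wide arrays that median was 0.09, with 19 of 24 above 0. In that fit 0 members passed and 6 had an unadjusted p under 0.05, as did 7.69% of all features.

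Within each sex chromosome complement, 5 gonadal males stood against 5 gonadal females. In XX livers 1 of 70 members passed (0.645% of all features), Psmb10 at -0.80 (adjusted p = 0.0486). An unadjusted p under 0.05 was found for 24 members and for 12.1% of all features. Without the wide arrays 3 members passed (1.27% of all features), H2-Eb1, H2-Aa and Psme1, each lower in males. With all arrays H2-Eb1 (-1.47, adjusted p = 0.101) and H2-Aa (-0.99, 0.123) did not pass within XX. The fit takes the spread of a gene from all 4 groups. The SD of H2-Eb1 was 0.09 in XX Sry, 0.22 in XX and 1.26 in XY-, which holds animal 12. H2-Eb1 and H2-Aa also passed within XX under quantile normalization, scale normalization and array weights. Psmb10 stayed between -0.92 and -0.70 in the 20 fits that left out 1 animal and passed in 4 of them, those without XY-Sry 5, XX 29, XY- 12 or XY- 30, with adjusted p from 0.00811 to 0.157. It passed under quantile normalization (-0.75, 0.00568), scale normalization (-0.80, 0.0141) and array weights (-0.77, 0.00865), and not with robust moderation (0.0505) or without the wide arrays (-0.59, 0.0729). The count of members was 0 in 15 of those 20 fits, 2 without XX 29 (0.682% of all features) and 4 without XY- 12 (2.14%). The 4 were H2-Eb1, H2-Aa, Psmb10 and Psme1, each lower in males. In XY livers 0 of 70 passed (0.158% of all features), and 10 had an unadjusted p under 0.05, as did 9.29% of all features. With robust moderation 0 passed, and 1 was called without XY- 12 (0.237% of all features). Without XY- 30 the count was again 0, with 10 at an unadjusted p under 0.05, as were 11.9% of all features. H2-Aa was at -0.99 in XX and -1.09 in XY, H2-Eb1 at -1.47 and -1.32, and B2m at -0.36 and -0.40. Without XY- 30 the XY values of these 3 were -1.04, -1.37 and -0.37. Psmb10 was at -0.80 and -0.53, and the test of that difference gave -0.27 with an unadjusted p of 0.30 (-0.16 and 0.528 without XY- 30). The constitutive proteasome median was 0.17 in XX and 0.05 in XY, and 0.09 and -0.02 without the wide arrays. The XX Sry livers had a mean of 0.11 (SD 0.08, n = 5) over these 24 genes, and the other 3 groups lay between -0.06 and -0.01.

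Lists of interferon-responsive genes and immune cell markers, chosen with earlier results of these data known, were set beside the members. Their counts of genes lower in gonadal males are to be read against the 2.28% of all features called lower with all arrays. In either direction 3.75% were called with all arrays, 3.85% without the wide arrays and 5.24% without XY- 30. How often the mean of a list of such size fails to overlap between the gonadal types was not counted. Of 18 measured interferon-gamma targets outside the members, 6 (33.3%) fell in gonadal males, among them the chemokine Cxcl9 at -2.10 ± 0.30 (adjusted p = 0.000922), the median was -0.52, and the list mean did not overlap between the gonadal types (-0.74 to -0.30 in males, -0.22 to 1.18 in females). Without the wide arrays 7 fell and the median was -0.25. Of 17 type I interferon response genes 1 (5.88%) passed, Irf7 at -0.75, and 0 without the wide arrays, and the list mean overlapped, with XX 6 highest at 1.25. XX 6 also had the highest mean of the class I members, at 0.42. Of 21 other antigen presentation genes 1 (4.76%) passed, the lysosomal protease Lgmn at -0.65, and the median was -0.07. Without the wide arrays 2 passed. A single gene called in a list of this size lies near the share of all features.

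Of 22 Kupffer cell and macrophage markers 10 (45.5%) fell, with a median of -0.72, among them Clec4f, a Kupffer cell lectin, at -0.82 ± 0.17 (adjusted p = 0.0105) and Cd5l, a macrophage-secreted protein, at -1.18 ± 0.27 (0.0224). The 1 marker above 0 was Cd163 at 0.32. The list includes Ptprc (-0.87), Tyrobp (-0.92), Fcer1g (-0.86) and Laptm5 (-0.62), which other leukocytes also express, so it is not specific to macrophages. The list mean ran from -0.76 to 0.33 in gonadal males and from -0.28 to 1.47 in gonadal females. XY- 12 was highest for these markers and for the mean of H2-Aa and H2-Eb1 (2.13), and XY-Sry 14 was the highest male for both (0.33 and -0.51). Of 13 T cell markers 5 (38.5%) fell, among them Cd3g at -1.11, but 4 lay above 0, up to Cd4 at 0.10. The median of the T cell list was -0.10, and the list mean did not overlap (-0.21 to -0.04 in males, 0.04 to 0.39 in females). The largest differences in that list were Cd2 (-1.45), Cd3g (-1.11) and Cd3d (-0.46), so its mean rests largely on few genes. How often such a mean fails to overlap was not counted. Of 10 NK cell markers 2 fell (median -0.16), of 9 B cell markers 2 fell (median -0.08), and of 5 dendritic cell markers 1 fell and 1 rose (median -0.43). Without the wide arrays 9 macrophage (median -0.58), 4 T cell, 3 NK cell, 2 B cell and 2 dendritic cell markers fell. In that fit 1 NK cell marker rose, and 3.85% of all features were called in either direction. Without XY- 30 each of these counts was as with all arrays, beside 5.24% of all features called. Of 9 sinusoidal endothelium markers and 11 hepatocyte markers 0 passed, with medians of -0.06 and 0.01. In whole liver RNA, fewer cells of a type and less RNA per cell cannot be told apart, and the part of these markers in the class II and class I differences was not tested.

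**Figure D4:**
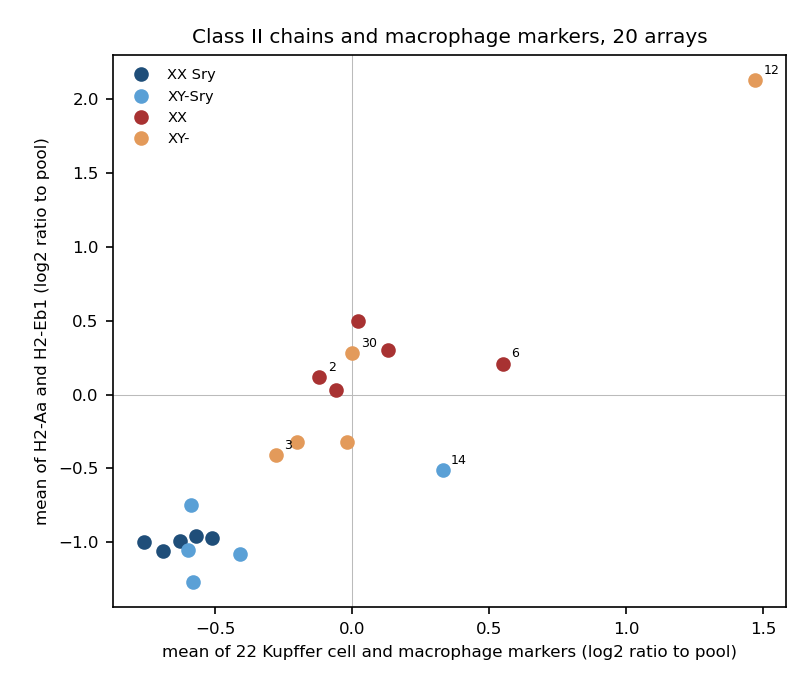
Mean log2 ratio to the pool of H2-Aa and H2-Eb1 (vertical) against the mean of 22 Kupffer cell and macrophage markers (horizontal), 1 point per array, with the 4 wide arrays, XY- 30 and XY-Sry 14 labelled by animal number. Gonadal males lie at or below -0.51 and gonadal females at or above -0.41 on the vertical axis, while on the horizontal axis XY-Sry 14 lies among the females and XY- 12 far to the right.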

How the data were processed

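The deposited values are log10 ratios of each liver (Cy5) to the pool (Cy3), held by the authors at a limit of 2 in either direction. The log base and the normalization are not given in the sources used here. In base 10 the Y-linked Eif2s3y and Kdm5d read 1.74 and 1.68 times the pool in 9 XY arrays, and in base 2 1.18 and 1.16 times. Base 10 was taken, and values were turned to log2. Of 23574 probes, 12662 were named by Entrez ID, 4 by accession and 999 by platform symbol, 48 name several genes and 9861 are not listed. Probes of one symbol were averaged, and 10 of 12 members with more than 1 probe had probes of 1 sign (not Psma4 and Psmd4). limma 3.58.1 (R 4.3.3) was fitted over all features and 4 groups, with no filter and Benjamini-Hochberg adjustment over all features at 0.05. The script was tested on simulated data. The number of arrays limits the precision. Members and lists, and the motifs, were chosen with earlier results of these data known. Per-array values were given for the class II chains and the interferon-induced proteasome members, and ranges for the rest. Alternatives left out XY- 30, the wide arrays or single animals, or changed scaling, array weights, probe averaging or moderation of the spread. Counts over the gene lists and unadjusted counts without the doubted arrays were added after the data were seen.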

Additional observations from a re-analysis of the deposited data

Results flagged for a closer look

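H2-Eb1 in XY- animal 12 read 2.47 on the log2 scale, where the other 4 XY- livers lay between -0.60 and 0.07. The gap to the nearest of them was 0.783 of the whole range, above Dixon's critical value of 0.71 for 5 samples. It was the 1 value that passed among 40 groups tested (the 8 called members and the MHC and proteasome means in each of 4 groups), and chance alone gives about 1 in 20. The same array read highest of all 20 for H2-Aa, Psmb10 and Psme1 and for the macrophage, T cell, NK cell, B cell and dendritic cell markers.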

How the results depend on the processing

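None of the 208 values of the 8 called genes reversed direction over the alternatives run. Among these the fit without XY- 30 stands both as its own setting and with the single animals. The 216 summary values were labelled only as same or moved, so a reversal could not be recorded for them. Outside the 20 fits for single animals, 45 of 48 gene values stayed past the threshold, the setting without XY- 30 being counted here. The exceptions were H2-T23 without XY- 30 and B2m and H2-Bl without the wide arrays. Failures in the 20 fits are given above for each gene. Quantile normalization raised the count of MHC and presentation members from 6 to 10 (5.52% of all features called), and leaving out single animals gave 2 to 8. The count of proteasome members ranged from 1 to 3 when single animals were left out. Within XX livers the count of 1 became 3 without the wide arrays (1.27% of all features), 4 with quantile (1.88%) and 4 with scale normalization (1.51%). It was 5 with array weights (2.38%), 0 with robust moderation (0.571%), 0 with single probes, and 0 to 4 without single animals. Within XY livers the count of 0 became 1 with quantile normalization (H2-Aa, with 0.26% of all features called), and 0 to 1 without single animals. The cause of these moves was not tested. Counts for the sex chromosome effect and the interaction were 0 in every alternative. Signals over background were not analysed here, so a low difference may come from a probe near background, and averaged ratios give no level. No paired analysis was possible because no animal number is shared between groups.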

Other observations

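Genes around the proteasome attach ubiquitin to proteins, deliver them for cutting or control its subunits. Of 13 measured proteasome regulators and ubiquitin genes 0 passed for gonadal type, 10 lay above 0 and the median was 0.09 (0.02 without the wide arrays), with array means from -0.08 to 0.12 in gonadal males and from -0.17 to 0.10 in gonadal females. Of the members in neither class, H2-Ke6 was at -0.22 ± 0.12 (adjusted p = 0.37) and Psmc3ip at 0.13 ± 0.06 (adjusted p = 0.239) in the limma fit.

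In the sex chromosome comparison the class I gene H2-Q8 had the largest difference among the MHC and presentation members, at 0.29 higher in XX (unadjusted p = 0.0717), and 0.34 without XY- 30 (unadjusted p = 0.0379). It ran from -1.01 in XY- animal 3 to 0.77 in XX animal 6, so its ends were arrays of wide spread, and it did not pass after adjustment over all features.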
